A study of Mus musculus with 6 samples.

Results

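Endothelial cells keep their identity through a small set of transcription factors that act together on the same enhancers. The expression of 10 such factors was examined in 3 mouse endothelial cell lines: the ETS factors Erg, Fli1, Ets1 and Elk3, the Tal1, Lmo2 and Gata2 group, and the SoxF factors Sox7, Sox17 and Sox18. The genes were chosen as a named list of endothelial lineage factors, and each was read from the probe set annotated to that 1 gene symbol. All 10 were found, with 1 such probe set each, among 19936 genes measured. ETS proteins bind a short GGAA core found in most endothelial enhancers. Tal1, a basic helix-loop-helix protein, is joined by Lmo2, which binds no DNA itself, to the DNA-binding factor Gata2 in a complex that also drives blood cell formation. SoxF proteins act in vessel and lymphatic development and in arterial specification.

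The lines came from mouse embryonic stem cells and are labelled by the cadherin they express, the calcium-dependent adhesion protein that joins neighbouring cells. The VE+N line is labelled as expressing VE-cadherin and N-cadherin, the VE line as expressing VE-cadherin and the N line as expressing N-cadherin, with 2 arrays for each. All lines were handled alike: 50000 cells per square centimetre were plated, grown to long confluence over 72 h and held without serum for 18 to 20 h, in 1% albumin. RNA was hybridised to whole-transcript arrays that report 1 log2 signal per probe set. Each cadherin state is 1 line, and no source used here says how a line came to express its cadherin. The titles call the 2 arrays of a line biological replicates, without saying whether they came from separate cultures. A p-value here therefore reflects only the spread between extracts of a line, pooled over the 3 lines and drawn towards that of all genes. A difference that goes with the cadherin and one that goes with the line cannot be told apart. The number of arrays limits the precision.

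The label "endothelial" was checked against marker genes. Of 40 endothelial genes, 36 lay above the median gene in mean signal, among them Pecam1, an adhesion receptor of endothelial junctions, at 11.2 to 11.6 log2 units on the 6 arrays. Of 19 measured haematopoietic markers 2 lay above the median gene, of 16 pluripotency markers 0, and of 12 mural cell markers 3. The pan-leukocyte gene Ptprc read 2.53 to 2.96 and the pluripotency factor gene Pou5f1 2.94 to 3.77. Some markers of other cell types were bright in some lines and dim in others. Kit, a receptor of blood progenitors and some endothelial cells, read 5.070 and 5.189 in the VE+N line, 5.919 and 5.969 in the VE line, and 9.727 and 9.765 in the N line. Pdgfrb, a receptor of pericytes, read 4.193 and 4.183 in the VE+N line, 8.297 and 8.669 in the VE line, and 8.944 and 9.129 in the N line. The N-cadherin gene Cdh2 differed by −1.80 ± 0.0992 log2 units (SE) between the VE and the N line (adjusted p = 1.87e-05), with the VE line lower. It was also lower in the VE+N line than in the N line, both labelled with N-cadherin (−0.97 ± 0.0992, adjusted p = 0.000315), and higher in the VE+N line than in the VE line (0.83 ± 0.0992, adjusted p = 0.00155). The VE-cadherin gene Cdh5 did not follow the labels: its mean was 7.10 in the VE+N, 6.94 in the VE and 7.28 in the N line. No Cdh5 difference passed in the fit used here, but that between the VE and the N line (−0.34, adjusted p = 0.0917), with the VE line lower, passed under 4 of 15 alternative settings, at −0.45 to −0.23 over all 15. The lines are called by their labels below.

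Across the 10 factors, the ETS genes Elk3 and Ets1 differed most between the lines. Elk3 was higher and Ets1 lower in both lines labelled with VE-cadherin than in the N line, and Erg and Sox7 were higher in the VE+N line than in either other line. Genes were called at a Benjamini-Hochberg adjusted p below 0.05 in limma, adjusted over all 19936 genes. In the VE line against the N line, 4 of 10 factors passed, 1 higher and 3 lower, where 15.4% of all genes passed (8.46% higher, 6.99% lower). In the VE+N line against the N line 5 of 10 passed, 3 higher and 2 lower, beside 19.1% of all genes (10.2% higher, 8.91% lower). In the VE+N line against the VE line 5 of 10 passed, again 3 higher and 2 lower, beside 10.1% (4.29% higher, 5.84% lower). Calls over 2-fold numbered 1, 2 and 0 among the factors in these comparisons, in that order, beside 3.81%, 4.6% and 2.52% of all genes. In each comparison the arrays of the lines did not overlap for 8 of 10 factors, but the same held for 57.3%, 55.1% and 49.5% of all genes, so a lack of overlap between pairs of arrays carries little weight. Bright probe sets pass more often: among genes above the median signal, which include 9 of the factors, 24.4%, 31% and 15.7% passed. The median log2 difference of the 10 was −0.094, −0.068 and 0.186, where that of all genes was −0.021, −0.004 and 0.029. Since these comparisons share arrays, the counts are not independent of each other. In RNA from whole cultures, fewer cells of a type and less RNA per cell cannot be told apart.

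**Figure D1:**
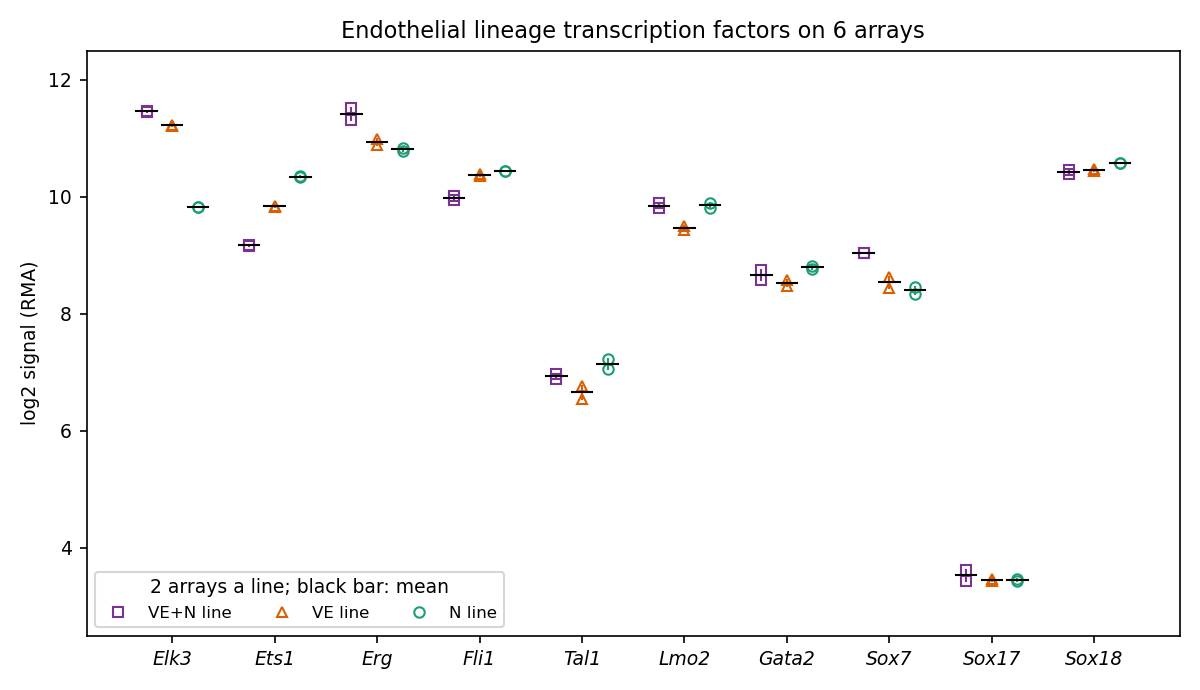
Log2 signal (vertical axis) of the 10 factors (horizontal axis) on each of the 2 arrays of the VE+N, VE and N lines (left to right within each gene), with black bars at the line means. Elk3 sits near 11.5 and 11.2 in the VE+N and VE lines and at 9.83 in the N line, Ets1 runs the other way, and Sox17 stays near 3.5 in every line.

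Elk3 encodes an ETS protein of the ternary complex factor group, which in mouse cells represses target genes until it is phosphorylated downstream of Ras. Its signal was 11.471 and 11.456 in the VE+N line, 11.238 and 11.214 in the VE line, and 9.837 and 9.830 in the N line. The arrays of each line lay within 0.03 log2 units of one another, and the lines did not overlap. Elk3 was 2.63-fold higher in the VE line than in the N line, a log2 difference of 1.39 ± 0.0936 (SE), adjusted p = 5.02e-05. The VE+N line exceeded the N line 3.10-fold, by 1.63 ± 0.0936, adjusted p = 1.35e-05. These were the only rises over 2-fold among the factors. Between the VE+N and the VE line the difference was small, at 0.24 with a 95% confidence interval of 0.02 to 0.45, and did not pass (adjusted p = 0.174).

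The promoter window of Elk3 is shown because this gene had the largest change, and it runs from 250 bases before to 50 bases after the annotated start, as RefSeq gives it on GRCm38.p6. It lies on the minus strand at chr10:93311110-93311409, and capitals mark the ETS core GGAA or its reverse complement TTCC.

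Elk3 promoter: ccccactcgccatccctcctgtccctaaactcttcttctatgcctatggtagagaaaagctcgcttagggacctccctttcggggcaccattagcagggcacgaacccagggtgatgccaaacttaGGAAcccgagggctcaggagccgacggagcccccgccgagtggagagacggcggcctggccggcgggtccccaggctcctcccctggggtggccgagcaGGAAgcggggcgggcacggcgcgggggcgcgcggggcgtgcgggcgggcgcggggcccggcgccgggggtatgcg

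The core occurs 2 times in it. All 300-base promoter windows have a median of 3 matches and 96% hold at least 1, so the letters alone do not set Elk3 apart. None of the longer motifs searched on both strands lay in this window: CCGGAA, an extended ETS site that itself contains the core, is in 14.9% of all windows, the GATA site AGATAA in 11.2%, the E-box CAGATG in 17.2% and the Sox site AACAAT in 10.7%.

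Ets1 is a transcriptional activator of angiogenic genes that is phosphorylated by ERK. It read 9.165 and 9.181 in the VE+N line, 9.843 and 9.833 in the VE line, and 10.334 and 10.364 in the N line, so that the lines stood in 3 separate steps. The VE line was 1.43-fold lower than the N line (log2 difference −0.51 ± 0.0937, adjusted p = 0.00799). The VE+N line was 2.26-fold lower than the N line (−1.18 ± 0.0937, adjusted p = 8.39e-05) and 1.59-fold lower than the VE line (−0.67 ± 0.0937, adjusted p = 0.00336). Ets1 was the one factor that passed in all 3 comparisons. Its difference between the VE and the N line lost the call when any 1 of the 4 arrays concerned was left out, with adjusted p of 0.0567 without N replicate 1, 0.0718 without N replicate 2, 0.053 without VE replicate 1 and 0.0585 without VE replicate 2, at log2 differences between −0.53 and −0.50.

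Fli1 and Erg are close relatives and bind the same sites in endothelial chromatin, yet their signals differed in opposite directions. Fli1 read 9.950 and 10.021 in the VE+N line, 10.398 and 10.365 in the VE line, and 10.449 and 10.445 in the N line. The VE+N arrays lay below all others. Its log2 difference was −0.46 ± 0.0953 in the VE+N line against the N line (1.38-fold lower, adjusted p = 0.0116) and −0.40 ± 0.0953 against the VE line (1.32-fold lower, adjusted p = 0.0369). For the VE line against the N line it was −0.07, with a 95% confidence interval of −0.29 to 0.15. The call against the N line was lost without N replicate 1 (−0.46, adjusted p = 0.0821) or N replicate 2 (−0.46, adjusted p = 0.0786).

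Erg, needed in mice and human cells to maintain endothelial junctions and quiescence, read 11.319 and 11.516 in the VE+N line, 10.881 and 10.992 in the VE line, and 10.781 and 10.843 in the N line. The VE+N arrays were the highest, and the spread between them (SD 0.139) was wider than in the other lines. Erg was 1.52-fold higher in the VE+N line than in the N line (log2 difference 0.61 ± 0.110, adjusted p = 0.00650) and 1.40-fold higher than in the VE line (0.48 ± 0.110, adjusted p = 0.0306). The VE line against the N line gave 0.12, with an interval of −0.13 to 0.38, and did not pass (adjusted p = 0.558). Without N replicate 1 the rise against the N line was 0.57 and narrowly missed the threshold (adjusted p = 0.0513).

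RefSeq lists 3 promoter windows for Erg. The one at chr16:95459299-95459598, on the minus strand, is printed because it was the only one of the 8 windows read, for Elk3, Erg, Tal1 and Gata2, that held the Sox letters AACAAT, and it also held a GATA site. Capitals mark, in the order of the sequence, the Sox letters as ATTGTT on this strand, the GATA letters as TTATCT on this strand, and 2 ETS cores.

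Erg promoter: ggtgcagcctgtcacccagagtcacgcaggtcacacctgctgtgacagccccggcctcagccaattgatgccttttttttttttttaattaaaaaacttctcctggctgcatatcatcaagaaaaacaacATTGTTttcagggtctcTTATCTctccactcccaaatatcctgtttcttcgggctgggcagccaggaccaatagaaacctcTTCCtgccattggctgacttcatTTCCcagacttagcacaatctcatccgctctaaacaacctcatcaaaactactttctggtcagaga

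The printed window was picked for these letters. The Sox letters lie in 10.7% and the GATA letters in 11.2% of all promoter windows, so finding them here carries little weight. The other Erg windows hold 4 and 1 ETS cores and none of the longer motifs. The single Erg probe set does not tell transcripts from these starts apart, and the values say nothing of which start was used.

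**Figure D2:**
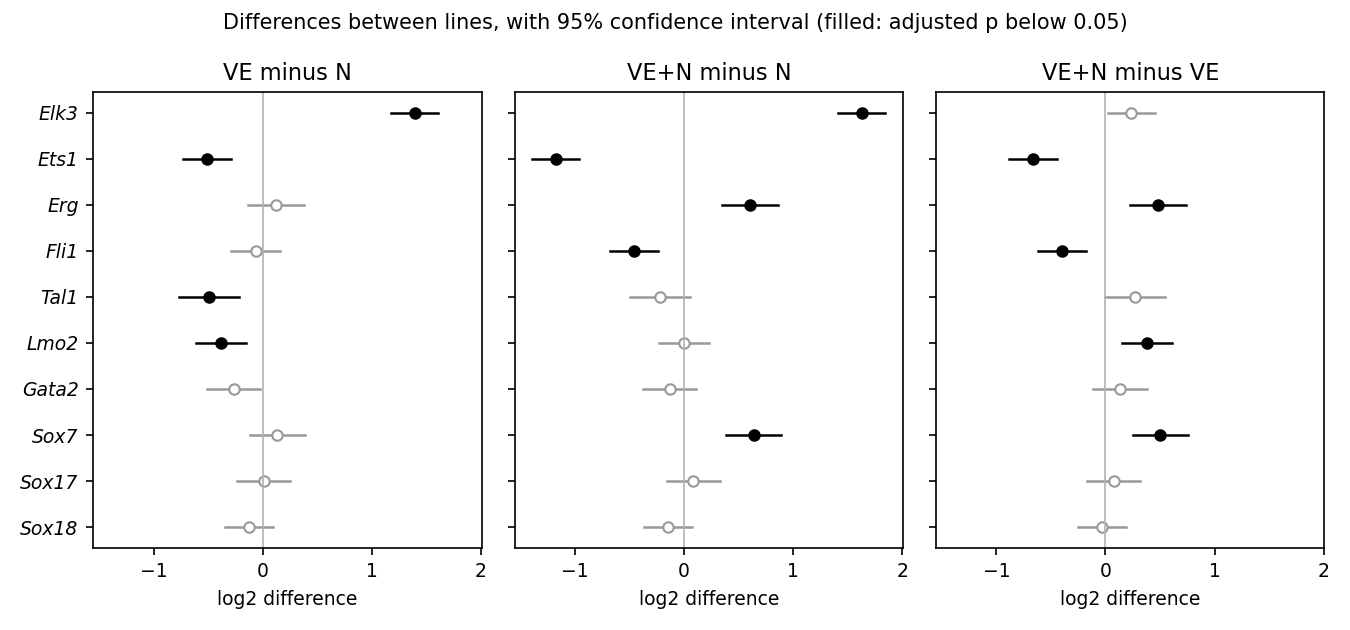
Log2 differences (horizontal axis) of the 10 factors (rows) in the 3 comparisons, with 95% confidence intervals from limma. Filled points passed adjusted p below 0.05. The widest steps are those of Elk3, at 1.39 and 1.63 against the N line, and of Ets1, at −1.18 in the VE+N line against the N line.

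Of Tal1, Lmo2 and Gata2, Lmo2 was called lower in the VE line than in both other lines, Tal1 was called lower in the VE line than in the N line, and Gata2 had no call. Lmo2 read 9.807 and 9.900 in the VE+N line, 9.438 and 9.502 in the VE line, and 9.892 and 9.820 in the N line. The VE arrays lay below the other 4, while the VE+N and N arrays overlapped. Lmo2 was 1.31-fold lower in the VE line than in the N line (log2 difference −0.39 ± 0.0992, adjusted p = 0.0353), and the VE+N line exceeded the VE line by 0.38 ± 0.0992 (1.30-fold, adjusted p = 0.0486). For the VE+N line against the N line the difference was −0.0024, with an interval of −0.23 to 0.23.

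Tal1 gave 6.887 and 6.975 in the VE+N line, 6.766 and 6.550 in the VE line, and 7.064 and 7.235 in the N line. The arrays of the lines did not overlap. The gaps from the VE+N arrays to the other lines were smaller than the spread between the 2 arrays of the VE or the N line. Only the difference between the VE and the N line passed, at −0.49 ± 0.118 (1.41-fold lower, adjusted p = 0.0271). The VE+N line differed by −0.22 from the N line (interval −0.49 to 0.05, adjusted p = 0.269) and by 0.27 from the VE line (interval −0.0005 to 0.55, adjusted p = 0.216).

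The upstream of 2 Tal1 promoter windows, at chr4:115056176-115056475 on the plus strand, is shown because it was the only one of those 8 windows with letters for both DNA-binding parts of the complex. Capitals mark the GATA letters, which read TTATCT on this strand, the E-box letters, which read CATCTG on this strand near the end of the window, and 4 ETS cores between them.

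Tal1 promoter: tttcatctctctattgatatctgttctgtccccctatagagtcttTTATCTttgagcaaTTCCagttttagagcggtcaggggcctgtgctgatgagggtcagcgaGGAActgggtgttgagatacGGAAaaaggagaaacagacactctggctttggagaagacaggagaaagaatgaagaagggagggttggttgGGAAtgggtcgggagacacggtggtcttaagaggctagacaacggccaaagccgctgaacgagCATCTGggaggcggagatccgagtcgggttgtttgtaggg

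The upstream window was likewise picked for its letters. The GATA letters lie in 11.2% and the E-box letters in 17.2% of all promoter windows. The downstream Tal1 window holds 4 ETS cores and neither of the other sites. For Gata2 the upstream window holds 3 ETS cores and the downstream window 1, with none of the longer motifs in either.

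Gata2, a zinc finger factor that binds enhancers of endothelial and blood progenitor genes, read 8.579 and 8.749 in the VE+N line, 8.575 and 8.485 in the VE line, and 8.821 and 8.775 in the N line. The N arrays were the highest. No difference passed, the largest being −0.27 for the VE line against the N line, with an interval of −0.51 to −0.02 and an adjusted p of 0.146. Gata2 thus stood in the same order as Tal1, the N line highest and the VE line lowest, without a call.

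The calls of Lmo2 and Tal1 between the VE and the N line rested on few arrays. Lmo2 lost the call with any of the 4 arrays left out, at adjusted p = 0.215 without N replicate 1, 0.133 without N replicate 2, 0.171 without VE replicate 1 and 0.117 without VE replicate 2. Tal1 lost it without N replicate 1 (adjusted p = 0.061), N replicate 2 (0.187) and VE replicate 2 (0.174) but passed without VE replicate 1. The log2 differences in the fits that lost the call ran from −0.58 to −0.35 over both genes.

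Of the SoxF factors, Sox7 differed between the lines. Its protein acts in early blood vessel formation. Sox7 read 9.040 and 9.042 in the VE+N line, 8.631 and 8.445 in the VE line, and 8.341 and 8.465 in the N line. The VE+N arrays stood above the rest, and the VE and N arrays overlapped. The rise in the VE+N line was 1.56-fold against the N line (log2 difference 0.64 ± 0.109, adjusted p = 0.00471) and 1.42-fold against the VE line (0.50 ± 0.109, adjusted p = 0.0242). The VE line against the N line gave 0.14, with an interval of −0.12 to 0.39.

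Sox18, mutated in human lymphatic and vascular disease, showed almost the same signal everywhere. It read 10.459 and 10.399 in the VE+N line, 10.474 and 10.440 in the VE line, and 10.579 and 10.581 in the N line. No difference passed, and the 95% confidence intervals kept each within 0.37 log2 units of 0, the widest being −0.37 to 0.07 for the VE+N line against the N line. Sox17, a factor of arterial endothelium, had the dimmest signal of the 10 and lay below the lower quartile of genes on every array. It read 3.624 and 3.435 in the VE+N line, 3.474 and 3.436 in the VE line, and 3.463 and 3.431 in the N line. At this brightness a difference between the lines was not detectable (adjusted p from 0.677 to 0.976), which does not show that the gene was equally expressed.

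The calls between the VE+N and the VE line depended on the arrays used. Erg, Fli1 and Lmo2 lost theirs when the N arrays were left out of the fit (adjusted p = 0.057, 0.0836 and 0.0962) and without N replicate 1 or N replicate 2 (the same 3 values each time, since a lone N array adds no spread). Without VE replicate 1 the adjusted p was 0.178 for Erg, 0.173 for Fli1, 0.217 for Lmo2 and 0.0582 for Sox7. Without VE replicate 2 it was 0.107, 0.149, 0.157 and 0.165 for the same genes. Without VE+N replicate 1 it was 0.0821 for Fli1, 0.059 for Lmo2 and 0.065 for Sox7, and without VE+N replicate 2 it was 0.118, 0.0708, 0.144 and 0.0894 for Erg, Fli1, Lmo2 and Sox7. With the replicate number as a block, Fli1 (adjusted p = 0.0501) and Lmo2 (adjusted p = 0.0623) did not pass. No direction of a called factor turned in any of these. Ets1 passed throughout, with a log2 difference from −0.74 to −0.58.

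**Figure D3:**
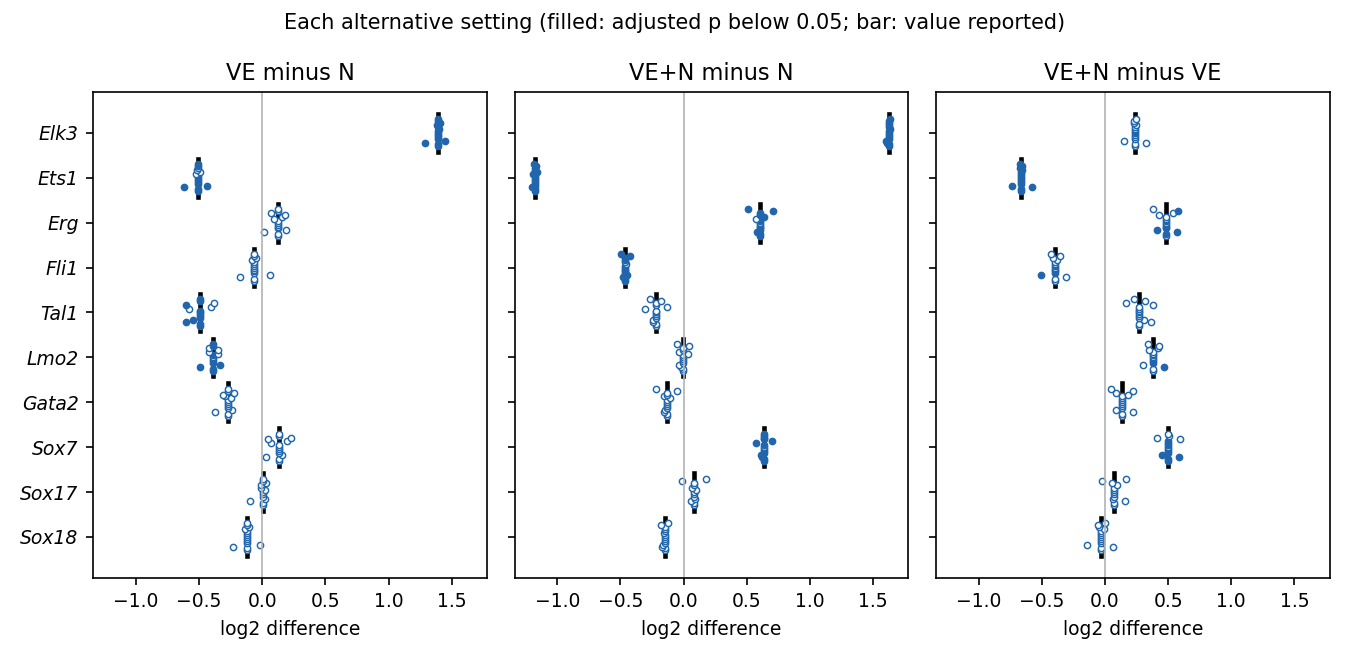
Log2 differences (horizontal axis) of each factor (rows) under every alternative setting, as points, filled where adjusted p was below 0.05. The black bar is the value given in the text. Elk3 against the N line and Ets1 in the VE+N line stay filled throughout, whereas Fli1 and Lmo2 in VE+N minus VE are filled under 5 of 15 alternatives each.

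The shapes of the profiles were compared by the root mean square difference of mean-centred log2 values over the 6 arrays, as a description. Erg and Sox7 differed by 0.105. Tal1, Lmo2 and Gata2 lay 0.114 to 0.139 from one another, and the relatives Ets1 and Fli1 0.296. Smaller still were the distances of Gata2 from Sox18 (0.101) and of Sox17 from Sox18 (0.103). Fli1 lay nearer to Sox18 (0.166) than to Ets1. Factors that differ little between lines lie close by this measure, so these distances do not set the groups apart. The largest distance between any 2 of the factors was that of Elk3 and Ets1, at 1.17. Over all other coding genes, the profile nearest to Elk3 was that of Naaa, which encodes a lysosomal amidase (0.0306), and the next that of Tiam1, an activator of the small GTPase Rac (0.0464). Nearest to Ets1 were Rin2, an activator of Rab5 (0.06), and Odc1, the first enzyme of polyamine synthesis (0.0601). With 3 lines and 2 arrays each, many genes can share such a profile.

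Other members of these families and the partners of Tal1, Lmo2 and Gata2 were read from the same fit. Of 21 other measured ETS factors, 2 were higher and 1 lower in the VE line than in the N line, 3 higher and 2 lower in the VE+N line than in the N line, and 1 higher and 3 lower in the VE+N line than in the VE line. These are 14.3%, 23.8% and 19% of the list, beside 15.4%, 19.1% and 10.1% of all genes. Etv1, an ETS activator induced by FGF and ERK signalling, differed by −1.01 in the VE and −2.72 in the VE+N line, each against the N line, and its relative Etv5 by −1.19 in the VE+N line. Erf, a repressor inactivated by ERK, was higher by 0.65 and 0.56 in the VE and VE+N lines. The ubiquitous factor Gabpa was higher in the VE+N line by 0.40 against the N line and 0.45 against the VE line. Etv2, which starts the endothelial programme in the embryo, did not pass in any comparison, with means of 4.24 in the VE+N, 4.08 in the VE and 4.23 in the N line, and is named here outside the rule for naming genes.

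Among 16 other Sox genes, the SoxC gene Sox11 differed most, with a mean of 3.24 in the VE line against 6.83 in the N line (log2 difference −3.60 ± 0.211, adjusted p = 2.46e-05) and −3.36 for the VE+N line against the N line. Its relative Sox12 was higher by 1.27 in the VE and 1.25 in the VE+N line. Sox9, a factor of cartilage and progenitor cells, differed by 1.50 between the VE and the N line and by −1.67 between the VE+N and the VE line. In all, 2 rose and 2 fell in the VE line against the N line, 1 rose and 2 fell in the VE+N line against the N line, and 0 rose and 1 fell in the VE+N line against the VE line. These are 25%, 18.8% and 6.25% of the Sox list, beside 15.4%, 19.1% and 10.1% of all genes.

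Of 23 partners and relatives of Tal1, Lmo2 and Gata2, 10 were higher and 3 lower in the VE line than in the N line. In the VE+N line 9 were higher and 2 lower than in the N line, and 4 higher and 2 lower than in the VE line. These are 56.5%, 47.8% and 26.1% of the list, beside 15.4%, 19.1% and 10.1% of all genes. Ldb2, a scaffold that binds LIM-domain proteins such as Lmo2, averaged 8.42 in the VE line against 10.7 in the N line, a log2 difference of −2.30 ± 0.0981 (adjusted p = 5.11e-06), and the VE+N line differed from the N line by −1.72 ± 0.0981. Ssbp2, which stabilises such scaffolds, was higher by 1.63 ± 0.101 in the VE and 1.25 ± 0.101 in the VE+N line, each against the N line. Runx1, a factor of blood-forming endothelium, was higher by 1.21 ± 0.103 in the VE line than in the N line (adjusted p = 0.000167), and the VE+N line differed from the VE line by −1.06. The related factors Gata4 and Gata6 were also higher, Gata6 by 1.44 in the VE line and Gata4 by 1.41 in the VE+N line. The median log2 difference of the list was 0.192, 0.22 and 0.023 in the 3 comparisons, beside −0.021, −0.004 and 0.029 over all genes.

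Among 23 other endothelial transcription factors, 5 rose and 5 fell in the VE line against the N line. In the VE+N line 7 rose and 5 fell against the N line, and 5 rose and 3 fell against the VE line. These are 43.5%, 52.2% and 34.8% of the list, beside 15.4%, 19.1% and 10.1% of all genes. The homeobox gene Nkx2-3 was higher by 1.77 ± 0.194 in the VE line and by 2.59 ± 0.194 in the VE+N line, each against the N line. The Notch targets Hey1 and Hey2 were lower by log2 differences of −1.24 and −1.17 in the VE line and −2.06 and −1.37 in the VE+N line. Epas1, the hypoxia-regulated factor of endothelium, was higher by 1.12 in the VE+N line than in the N line.

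Endothelial genes of other functions gave 8 higher and 14 lower of 40 in the VE line against the N line, and 14 higher and 11 lower in the VE+N line against the N line. These are 55% and 62.5% of the list, beside 15.4% and 19.1% of all genes. For the VE+N line against the VE line the share was 45%, beside 10.1% of all genes. Among genes above the median signal, which include 36 of the 40, 24.4%, 31% and 15.7% passed in these comparisons. In the VE+N line against the VE line, where Erg, Sox7 and Lmo2 were higher and Ets1 and Fli1 lower, 14 were higher and 4 lower. Von Willebrand factor (Vwf) exceeded the VE line by 2.73 ± 0.116 there, the tight junction gene Cldn5 by 2.42 ± 0.125 and the lectin Clec14a by 1.10 ± 0.122, while the Notch ligand Dll4 differed by −1.38 ± 0.141. That these genes and the factors moved in the same lines is a description of 3 lines, and no link between them was tested.

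**Figure D4:**
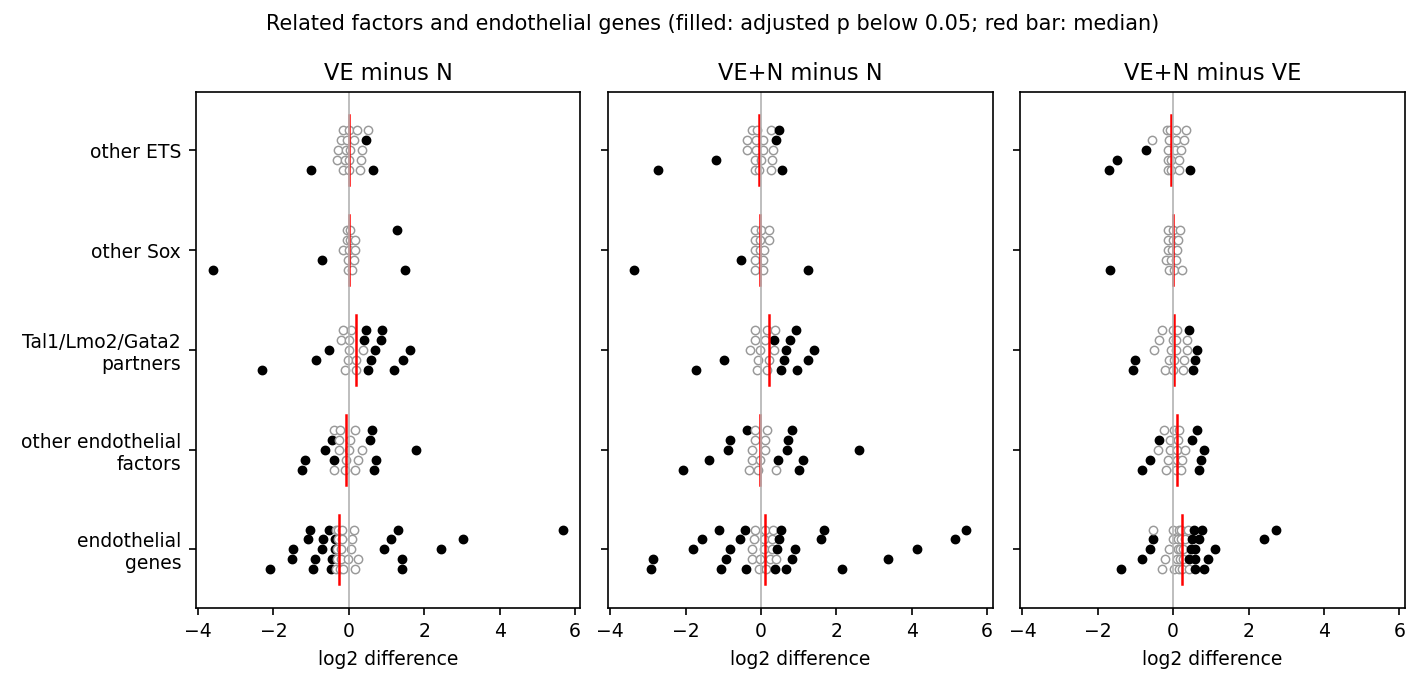
Log2 differences (horizontal axis) of single genes in 5 gene lists (rows), with the 3 comparisons side by side. Filled points passed adjusted p below 0.05 and red bars are list medians. Filled points fall on both sides of 0 in the ETS, Tal1/Lmo2/Gata2 partner and both endothelial lists, with Sox11 at −3.60 the lowest of the Sox genes.

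Of the markers of other cell types, those of mural cells differed between the lines beside these factors. The mean log2 signal of 12 mural cell markers was 4.371 and 4.477 in the VE+N line, 4.943 and 5.030 in the VE line, and 5.331 and 5.349 in the N line. In the VE line against the N line 0 were higher and 3 lower, in the VE+N line against the N line 1 was higher and 6 lower, and in the VE+N line against the VE line 1 was higher and 3 lower. These are 25%, 58.3% and 33.3% of the list, beside 15.4%, 19.1% and 10.1% of all genes. The median log2 difference of the list was −0.188, −0.406 and −0.065 in these comparisons, beside −0.021, −0.004 and 0.029 over all genes. The step in the mean between the VE+N and the VE line thus includes the large differences of a few genes. Pdgfrb had the largest difference of the list in the VE+N line, at −4.85 ± 0.140 against the N line (adjusted p = 4.41e-07) and −4.30 ± 0.140 against the VE line. The smooth muscle actin gene Acta2 differed by −2.27 and the Notch receptor gene Notch3 by −2.13 in the VE+N line against the N line. Notch3 was not called in the VE line against the N line (0.32). The marker called higher was Anpep, by 1.50 in the VE+N line against the N line and by 1.67 against the VE line.

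Of 19 haematopoietic markers 1 passed in each comparison, 5.26% of the list and below the share of all genes, and the lowest adjusted p of the 16 pluripotency markers was 0.0632. The called marker was Kit, at −4.62 ± 0.0992 in the VE+N line and −3.80 ± 0.0992 in the VE line, each against the N line. The mean of the 19 was 4.353 to 4.406 in the VE+N line, 4.315 to 4.358 in the VE line and 4.618 to 4.659 in the N line, a step that includes Kit, while the median log2 difference of the list was −0.111 in the VE line and −0.074 in the VE+N line against the N line. The part of such cells in the differences of Tal1, Lmo2 or the ETS factors was not tested.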

How the data were processed

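The deposited log2 values are the output of RMA in Partek 6.3, per the submitters' processing notes, a method that corrects background, normalizes by quantiles and summarizes probe sets. The log2 scale was read from their range (0.817 to 14.2). Of 35556 probe sets, 21789 carried 1 symbol, updated through Entrez identifiers (21698), accessions (3) or kept (88). The brightest probe set was used for each gene, leaving 19936 genes, with no filter on signal.

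Lines were compared with limma 3.58.1 in R 4.3.3 over all 6 arrays (3 residual and 4.89 prior degrees of freedom) by two-sided moderated tests. Values after ± are SE unless marked SD. The factors, lists and tests were chosen with earlier results of these data known. Named genes outside the 10 factors are at most 4 called genes of a list in a comparison with the largest change, the 2 nearest profiles of a factor that spanned over 1 log2 unit, Cdh2 and Cdh5, and single markers named to check the label. The fit was tested on 20 simulated VE minus N sets of 19936 genes with 200 changed. It recovered 99.5% of changes of 1 log2 unit and 36.4% of those of 0.5, with 7.49% false calls. The share of false calls exceeded the threshold of 0.05. In the data 3079 genes were called in this comparison, so these rates hold for the simulated setting only. Alternatives were other arrays in the fit, a replicate block, other scalings, filters, probe set and test choices, and each array left out. Promoter windows came from RefSeq (GRCm38.p6), which held windows for Elk3, Erg, Tal1 and Gata2. No assembly is named for the values.

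The titles number the replicates 1 and 2 in each line. The replicate deviations correlated across genes at −0.00504 for VE with N, 0.123 for VE+N with N and 0.0689 for VE+N with VE, so the numbers were not treated as pairs.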

Additional observations from a re-analysis of the deposited data

How the results depend on the processing

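With 2 arrays a line, differences near 0.4 to 0.5 log2 units lie at the edge of what the fit can call, and signal over background was not analysed here. Leaving out an array leaves 1 in its line, which is then assumed to vary like the others. Elk3 against the N line in both comparisons, Ets1 in VE+N minus N and Ets1 in VE+N minus VE passed under all 15 alternatives. Over each array left out in turn, the factors called numbered 1 to 4 (VE minus N), 3 to 5 (VE+N minus N) and 1 to 2 (VE+N minus VE), and genes called 1688 to 3356, 2243 to 3800 and 966 to 2049. The methods' analysis of variance with Benjamini-Hochberg called 2, 3 and 2 factors among 1276, 1867 and 311 genes. At the methods' own threshold (p 0.05 unadjusted and over 2-fold) it called 1, 2 and 0 factors among 751, 909 and 493 genes. In VE+N minus VE, 2 factors among 1683 genes passed with only the 4 arrays compared. The replicate block left 3 of 5 there, with 2055 genes, and changed no call in VE minus N (4 factors, 3056 genes) or VE+N minus N (5 factors, 3864 genes). Elk3 passed in VE+N minus VE with the analysis of variance (adjusted p = 0.0397) and with a trended robust prior (adjusted p = 0.0237). Median centring moved the median of all genes in VE minus N from −0.021 to −0.13, and in VE+N minus VE from 0.029 to 0.117. The share of higher calls became 34.9% in place of 54.8%, and 60.8% in place of 42.3%. Fli1 in VE+N minus VE did not pass there (−0.31, adjusted p = 0.0851), nor Lmo2 with quantile normalization again (0.30, adjusted p = 0.0876). Signs turned only in differences that never passed: Sox17 in VE minus N with median centring (−0.10) and over arrays left out (−0.011 to 0.027, at −0.008 without N replicate 2), Fli1 in VE minus N with quantile normalization again (0.058), and Sox18 in VE+N minus VE with median centring (0.06) and over arrays left out (−0.058 to 0.002). Over arrays left out, the other sign turns were Lmo2 (−0.049 to 0.044) and Sox17 (−0.012 to 0.176) in VE+N minus N, and Sox17 in VE+N minus VE (−0.02 to 0.169).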

Other observations

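Fli1 and Ets1 are direct neighbours on mouse chromosome 9, with 0 protein-coding genes between them in the RefSeq order, and both were lowest in the VE+N line. The 4 protein-coding genes on each side of the pair were read as well, chosen after the values of Fli1 and Ets1 were seen. Of these 8 genes, 2 were higher, 1 was lower and 5 did not pass in the VE+N line against the N line. In that comparison 19.1% of all genes passed. The higher ones were Arhgap32 (0.49 ± 0.0962 (SE), adjusted p = 0.00932) and St3gal4 (0.35 ± 0.101, adjusted p = 0.0453). The lower one was Tirap, an adaptor of Toll-like receptors (−0.69 ± 0.101, adjusted p = 0.00201). In the VE line against the N line 2 of the 8 were higher, Arhgap32 (1.16) and St3gal4 (0.37), where 15.4% of all genes passed. Tirap was the 1 lower gene in that comparison (−0.66), and Fli1 did not pass (−0.07). In the VE+N line against the VE line 0 of the 8 were higher and 1, Arhgap32, was lower (−0.67), where 10.1% of all genes passed. The log2 differences there were −0.67 for Ets1 and −0.40 for Fli1.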
